A study of Mus musculus with 2 samples.

Results

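The Ly6 family encodes small, cysteine-rich proteins that most often sit on the outer face of the cell membrane through a glycosylphosphatidylinositol (GPI) anchor. The mouse genes lie side by side on chromosome 15 and arose by duplication, so close copies share stretches of sequence. On T cells Ly6a (also called Sca-1) and Ly6c are surface antigens that vary with activation and differentiation, and Ly6a, Ly6c and Ly6e can be induced by interferon. Ly6a alleles of inbred mouse strains are known to differ in which lymphocytes carry the protein.

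Every non-control probe whose name in the scanner files was Ly6a, Ly6c1, Ly6c2, Ly6d, Ly6e, Ly6f, Ly6h, Ly6i or Ly6k was taken. This gave 10 probes of 55676, covering 8 of the 9 names. Ly6c1 and Ly6h had 2 probes each, the other names with a probe had 1, and Ly6c2 matched 0 probes by name, so it has no value of its own. The compared samples were regulatory T (Treg) cells, CD4 T cells that restrain immune responses, sorted from Nr4a-TKO mice and from wild-type mice, all 5 weeks old, with 1 array for each genotype. Nr4a1, Nr4a2 and Nr4a3 form a small group of nuclear receptors switched on by antigen receptor signals. The labels name the genotype as Nr4a-TKO without giving the alleles, the number of mice, the strain or the sex. RNA was labelled with Cy3 and hybridised to a 1-colour Agilent mouse array of 60-base probes.

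With 1 array per genotype there are no replicates, so no test was run and each difference is between 2 arrays. Differences in genotype, mouse, preparation and array cannot be told apart, and with bulk RNA a change in the number of cells of a type and a change in RNA per cell cannot be told apart either. The ± beside a signal is the error estimate that the scanner software gives for that spot. Each Ly6 probe had 1 spot per array. That error holds no variation between mice.

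The arrays were checked once against their labels. In the array labelled Nr4a-TKO the Nr4a3 signal was 7.04-fold lower (3.26-fold with normexp, an alternative background correction), Nr4a1 differed by 0.06 on the log2 scale, and the 2 Nr4a2 probes were 2.05-fold and 2.54-fold higher (1.66-fold and 2.28-fold with normexp). Which part of each transcript the mice lack is not given, so none of these probes settles the label. Of 11 defining Treg and T cell markers 10 were on the array. All 10 were well above background on both arrays. Foxp3, which specifies the Treg lineage, had a signal of 126.8 in Nr4a-TKO cells and 2412 in wild-type cells, 17.2-fold lower (10.3-fold with normexp), and Ikzf2 and Ctla4 were 3.07-fold and 2.29-fold lower. The other 7 markers lay within 2-fold. Of these, Lck differed by 0.04, while Tnfrsf18, Cd3d, Cd4, Cd3g, Il2ra and Cd3e were all lower, from -0.56 to -0.36. The median over the 10 markers was -0.52, against 0.08 over all 23400 gene names, of which 3.15% were higher and 3.06% lower by 2-fold or more. The name Treg cells is kept here for both samples, and whether the Nr4a-TKO cells held that identity was not tested. Xist, made from the inactive X chromosome of female cells, was 228-fold and 380-fold higher in the Nr4a-TKO array at the 2 probes measured on both arrays (74.1-fold and 160.2-fold with normexp). Its level moved with genotype, and what part this difference between the mice had in the Ly6 values cannot be told apart from genotype.

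The probe sequences below, from the scanner files and written 5′ to 3′, show how the Ly6 genes were read out. They also show a stretch that 2 of the probes share. Probes without a shared stretch can still read the same gene, as the 2 probes named Ly6c1 are meant to. Of 4 probes placed late in their transcripts only the first 30 of the 60 bases are given. In the Ly6k probe the capitals mark the codons for a pair of cysteines and for the closing cysteine and asparagine that end a Ly6 domain. In the probes of Ly6g and of ENSMUST00000089689, close neighbours that are not members, the capitals mark a run of 28 bases that the 2 probes share.
Ly6a (first 30 bases): tatgagttatagaagctccaaggtgggagt
Ly6c1 (transcript base 754, first 30 bases): tattatagtatcaccatccacacataagta
Ly6c1 (transcript base 277): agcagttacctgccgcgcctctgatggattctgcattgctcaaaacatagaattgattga
Ly6i (first 30 bases): taaagagccgttcttgccatcctttctgcc
Ly6f (first 30 bases): tttcaaatatgtacttcctagaatgccatt
Ly6k: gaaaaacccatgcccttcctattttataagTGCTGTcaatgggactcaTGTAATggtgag
Ly6g: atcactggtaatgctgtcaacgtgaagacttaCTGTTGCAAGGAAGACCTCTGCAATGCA
ENSMUST00000089689: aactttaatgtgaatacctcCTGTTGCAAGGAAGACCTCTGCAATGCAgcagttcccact

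Among the 10 Ly6 probes 0 shared a run of 20 bases with any other probe on the array. The longest run that a member probe shared with a probe of the same stretch of chromosome 15 was 10 bases, between Ly6f and the transcript AK080018. The codon pattern capitalised in Ly6k, searched on the probe strand, was found in 8 of all 55676 probes (0.0144%) and in 3 of the 31 probes that lie between the outermost Ly6 probes. These were Ly6k, Ly6g and ENSMUST00000089689. Transcript sequences were not used here, so binding of a probe to a transcript of a near-identical copy, Ly6c2 included, was not tested, and values of close copies are uncertain for this reason.

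Of the 10 probes 8 were well above background on both arrays. Of these 8, 3 were higher in the Nr4a-TKO array by 2-fold or more, 0 were lower by that much and 5 lay between. The 3 were Ly6a, Ly6k and 1 of the 2 Ly6c1 probes, all past 5-fold here, though Ly6k was 4.36-fold higher with normexp and the Ly6c1 probe 4.81-fold higher with spike-in centring. Among all 33903 probes that passed this filter, 2.98% were higher and 3.07% lower by 2-fold or more, and 0.395% were higher and 0.286% lower by 5-fold or more. The median log2 difference was 0.51 over the 8 Ly6 probes and 0.07 over all 33903 probes. A further probe, of Ly6f, was well above background in the Nr4a-TKO array only, and a second Ly6h probe on neither array. Among the 4506 probes well above background on 1 array only, 530 (11.8%) had a bound of 2-fold or more toward the Nr4a-TKO array. The 4506 include probes seen in wild-type only, whose bounds run the other way. Of the 35572 probes well above background in Nr4a-TKO, 33903 were so on both arrays. The remainder are the probes seen in Nr4a-TKO only, as Ly6f was. The 530 are a larger share of that remainder than 11.8%, so a bound of this size is less unusual there. The same holds for the other bounds toward the Nr4a-TKO array given below.

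**Figure D1:**
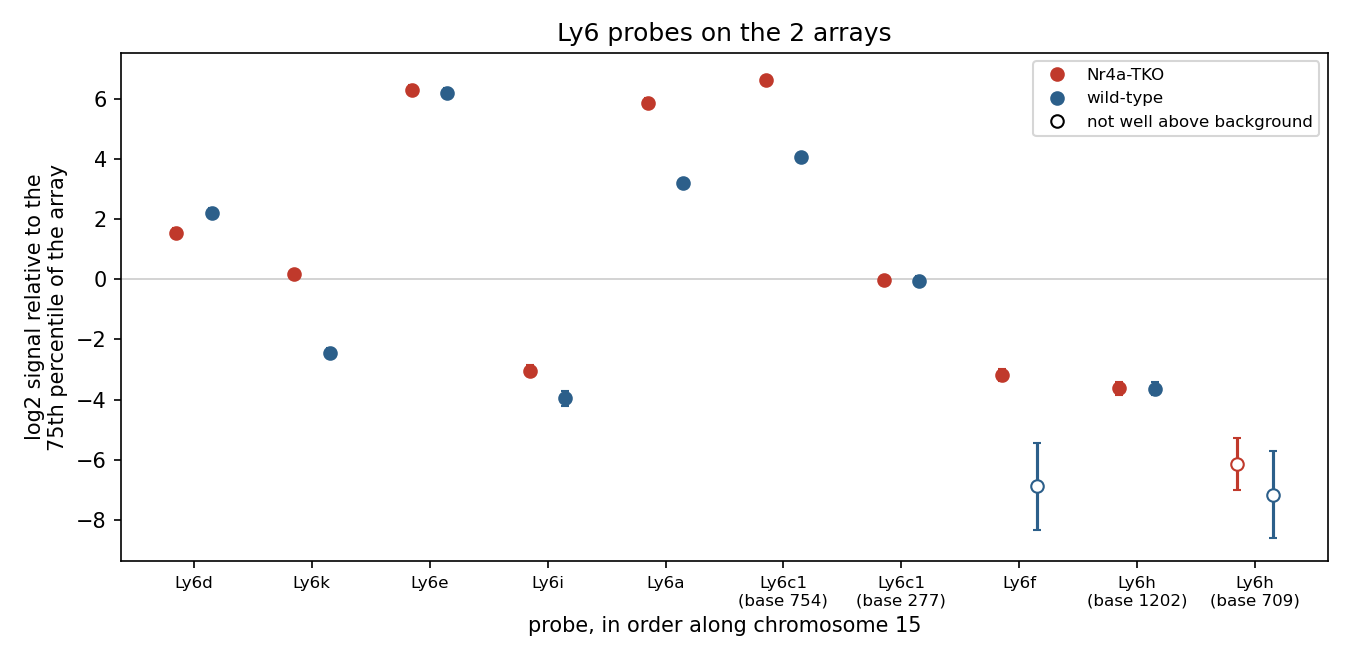
Signal of each Ly6 probe on the Nr4a-TKO array (red, left) and the wild-type array (blue, right), on a log2 scale relative to the 75th percentile of its array, with the scanner's error for the spot as bars. Probes are in order along chromosome 15 and open circles were not well above background. Levels of different probes cannot be compared with each other. Ly6k, Ly6a and the Ly6c1 probe at transcript base 754 are 2.61, 2.68 and 2.54 log2 units higher in the Nr4a-TKO array, while the points of Ly6e, the other Ly6c1 probe and the brighter Ly6h probe lie within their error bars of each other.

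Ly6a, the antigen used to mark blood stem cells and present on many activated T cells, had a processed signal of 43779 ± 4378 in Nr4a-TKO cells and 7546 ± 755 in wild-type cells. After scaling, its level was 5.86 in the Nr4a-TKO array and 3.18 in the wild-type array, a log2 difference of 2.68 ± 0.20, or 6.41-fold higher. The probe (transcript NM_010738) lies at chr15:74825553-74825612 on mm9, the build of all probe positions here, on the minus strand. Exon annotation of that build was not used here. It ranked 76 from the top among the 33903 probes, and the difference stayed between 2.41 and 2.72 over the 10 settings run.

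Ly6c1, a marker of endothelium and subsets of T cells, gave a different answer at each of its probes. At chr15:74875495-74875554, the probe at base 754 of the transcript had a signal of 72973 ± 7297 in Nr4a-TKO cells and 13856 ± 1386 in wild-type cells. This is a log2 difference of 2.54 ± 0.20 (5.82-fold higher), and it ranked 98 from the top. The probe at base 277, at chr15:74877785-74877844, had 736 ± 73.8 in Nr4a-TKO cells and 804 ± 80.6 in wild-type cells, a log2 difference of 0.015 ± 0.20. The scanner files pair the first with NM_001252055 and NM_010741 among others, and the second with NM_001252058, NM_001252057, NM_001252056 and NM_001252055. The gap of 2.52 between the probes compares with a median gap of 0.25, and a 95th percentile of 1.16, over 6805 genes with several measured probes.

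A probe that the files give no gene name (A_55_P2015088) lies 52.8 kb from the Ly6a probe, beside the Ly6c1 probe of base 277 at 52.2 kb and on the same strand, and differed in the other direction. Its signal was 6.07 in the Nr4a-TKO array, not well above background, and 65.8 in the wild-type array, where it was. It was at least 2.13-fold lower in the Nr4a-TKO array, and 1.81-fold lower with normexp.

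Ly6k, known from the testis where its protein is found with Tex101 on germ cells, was higher in the Nr4a-TKO array. It had 844 ± 84.7 in the Nr4a-TKO array and 152 ± 17.0 in the wild-type array, a log2 difference of 2.61 ± 0.22 (6.11-fold). Its probe lies at chr15:74627529-74627588 on the minus strand. With normexp background correction it was 4.36-fold higher. Tex101 itself had 139.4 in the Nr4a-TKO array and 124.1 in the wild-type array, a log2 difference of 0.31.

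The probes of Ly6i, at chr15:74810484-74810543, and Ly6f, at chr15:75102462-75102522, were dim. Ly6i had a signal of 91.1 ± 11.5 in Nr4a-TKO cells and 53.5 ± 8.90 in wild-type cells, which is 1.88-fold higher (log2 0.91 ± 0.30) and 1.36-fold with normexp. Ly6f had 83.1 ± 11.0 in Nr4a-TKO cells, and in wild-type cells it was not well above background, with a substitute value of 7.04 put in by the scanner software. It was therefore at least 3.73-fold higher, a bound taken against the lowest signal well above background on the wild-type array. With normexp it was 2.08-fold higher.

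Ly6e, the thymic shared antigen, differed by less than its scanner error. It had 59230.3 ± 5923 in the Nr4a-TKO array and 60932 ± 6093 in the wild-type array, a log2 difference of 0.10 ± 0.20 whose sign turned in 4 of the 10 settings. Its probe lies at chr15:74789592-74789651 on the plus strand. Ly6h, which is known from the brain where its protein binds nicotinic receptors, had 61.2 ± 9.16 in the Nr4a-TKO array and 67.0 ± 9.43 in the wild-type array at the probe of transcript base 1202, a log2 difference of 0.013 ± 0.30. That probe lies at chr15:75395175-75395234. The other, at base 709 and chr15:75395668-75395727, gave 10.7 in the Nr4a-TKO array and 5.85 in the wild-type array and has no fold change, since neither was well above background.

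Ly6d, an antigen of B-lineage progenitors and of keratinocytes, was the only measured member with a negative difference in every setting. It had 2199 ± 220.0 in Nr4a-TKO cells and 3836 ± 384 in wild-type cells, 1.58-fold lower (log2 -0.66 ± 0.20). The probe lies at chr15:74592551-74592610. Its difference ranged from -0.93 to -0.66 over the settings and did not reach 2-fold in any of them.

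**Figure D2:**
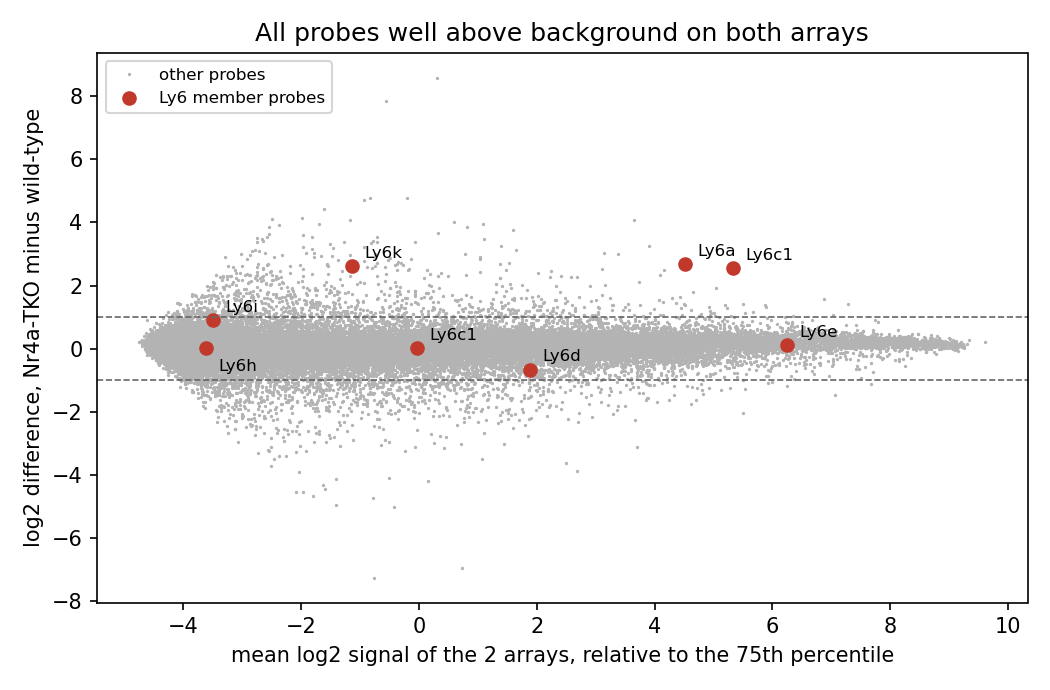
Log2 difference, Nr4a-TKO minus wild-type, of each of the 33903 probes well above background on both arrays against its mean log2 signal. Grey points are other probes, red points the 8 Ly6 probes, and dashed lines mark 2-fold. Ly6k, Ly6a and the brighter Ly6c1 probe stand at 2.61, 2.68 and 2.54, and the other 5 lie between the dashed lines.

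Chromosome 15 also holds the Nr4a1 probe, at chr15:101105071-101105130, and what part that locus had in the Ly6 values was not tested. The Ly6 probes span 803 kb of chromosome 15, with 31 probes in all, of which 19 were well above background on both arrays. Of these 19, 8 were higher in the Nr4a-TKO array by 2-fold or more (6 with normexp) and 0 lower, against 3.28% higher and 2.73% lower among the 1280 such probes of chromosome 15. Among the 11 measured probes in this stretch that are not members, 5 were higher by 2-fold or more, and 3 with normexp. In the flanks, the 5 nearest gene names on either side, 0 of 10 measured probes were higher and 1 lower by 2-fold or more (0 lower with normexp). The flank differences ran from -1.17 (Lynx1) to 0.91 (Them6), with a median of 0.21, against 0.53 over the 19 probes between. Rhpn1, a flank gene measured in wild-type only, was at least 2.31-fold lower in Nr4a-TKO (1.39-fold with normexp).

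The non-member probes that were higher lay between Ly6a and Ly6h. Ly6g, a granulocyte antigen that the Gr-1 antibody recognises, had a signal of 1525 in the Nr4a-TKO array and 250.8 in the wild-type array, 6.72-fold higher, or 5.30-fold with normexp. ENSMUST00000089689, described in the files as a predicted pseudogene, had 1936 in the Nr4a-TKO array and 414 in the wild-type array, 5.17-fold higher, or 4.37-fold with normexp. These 2 probes share the 28 bases capitalised above, and whether each reads only its own transcript was not tested. 9030619P08Rik, which the RefSeq table lists as a transcribed pseudogene, had 4982 in the Nr4a-TKO array and 849 in the wild-type array, 6.48-fold higher, or 5.88-fold with normexp. Ly6a2 (I830127L07Rik in the files) was 2.33-fold higher at a signal of 75.5 in the Nr4a-TKO array and 35.9 in the wild-type array, and the unnamed probe A_55_P2047617 was 2.39-fold higher. With normexp these last 2 were 1.48-fold and 1.90-fold higher. Gm3142, well above background in the Nr4a-TKO array only, was at least 3.35-fold higher, and 1.89-fold with normexp.

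Between the Ly6d and Ly6a probes were Ly6m (2010109I03Rik in the files), which differed by 0.46, and Gml and Gml2 (Hemt1), relatives of the family that differed by 0.53 and -0.09 at their measured probes. The transcripts BC171937, BB157357 and NAP101442-1 differed by 0.19, -0.30 and -0.89. Cyp11b1 and Cyp11b2, steroid enzymes of the adrenal cortex that lie within the cluster, were well above background on neither array, as were AK080018 and a second Gml probe. Beyond Ly6a, A_55_P1968673, A_55_P2144501 and ENSMUST00000055719 were likewise on neither, and A_55_P2062271, measured in wild-type only, was at least 1.37-fold lower in Nr4a-TKO.

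**Figure D3:**
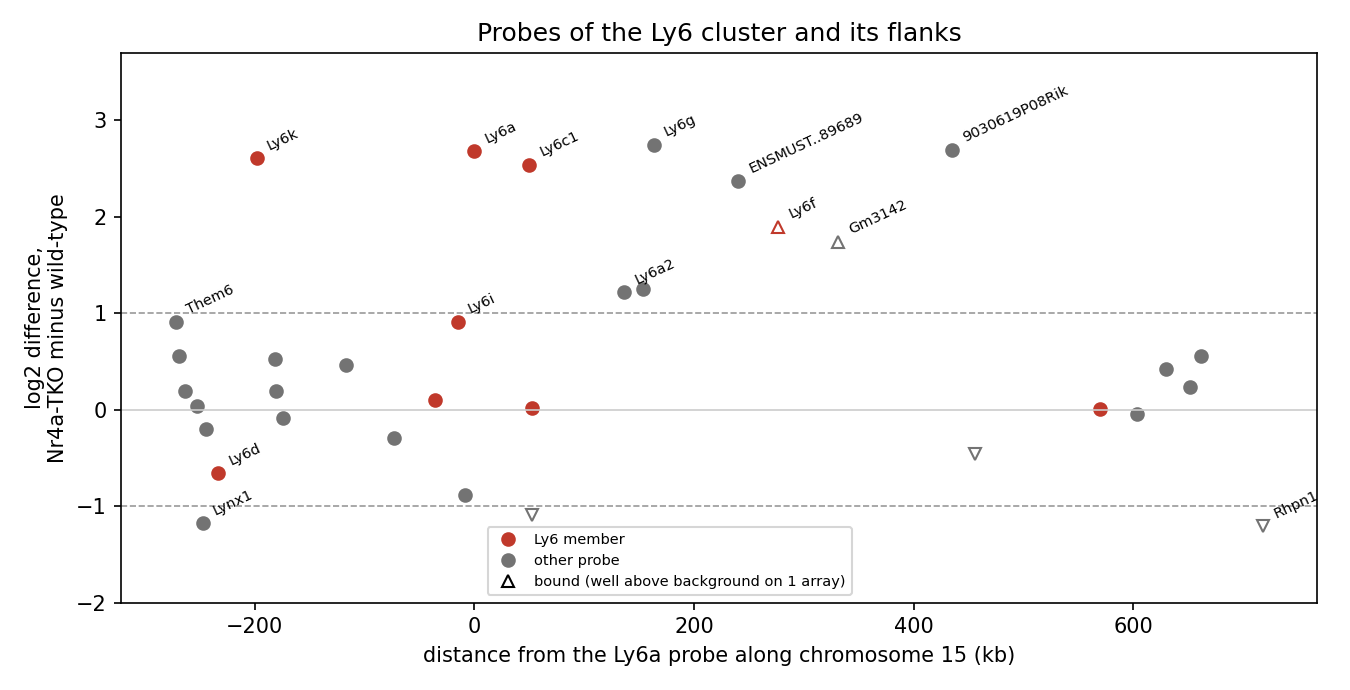
Log2 difference, Nr4a-TKO minus wild-type, of probes along the Ly6 cluster and its flanks, against the distance in kb from the Ly6a probe. Filled circles were well above background on both arrays, red for members and grey for other probes, open triangles are bounds for probes well above background on 1 array, and dashed lines mark 2-fold. Of the 19 measured probes between the outermost Ly6 probes, 8 lie above the upper line (6 with normexp) and 0 below the lower one.

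Relatives of the family, on chromosome 15 and elsewhere, are given for comparison. Over the list of other Ly6 and uPAR superfamily genes, 33 of 36 were on the array and 20 were measured on both arrays. Of these 20, 2 were higher and 2 lower by 2-fold or more, with a median log2 difference of -0.01, against 3.15% higher, 3.06% lower and a median of 0.08 over 23400 gene names. The 2 higher were Ly6g and 9030619P08Rik, both of chromosome 15. The 2 lower were Lypd6b, at 3.72-fold (1.96-fold with normexp), and Lynx1, a modulator of nicotinic receptors, at 2.26-fold (1.88-fold with normexp), with a second probe of Lynx1 at -0.20. Of the Ly6 genes of the major histocompatibility region on chromosome 17, Ly6g5b differed by -0.37, Ly6g6c by -0.26 and Ly6g6e by -0.28, while Ly6g5c, Ly6g6d and Ly6g6f were well above background on neither array. Plaur, the urokinase receptor, differed by -0.70 and the complement inhibitor Cd59a by 0.07. Cd59b was well above background in the Nr4a-TKO array only and at least 2.29-fold higher (1.81-fold with normexp).

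The remaining measured relatives lay within 2-fold. Slurp1, Slurp2, Lypd2 and Psca of chromosome 15 differed by 0.55, 0.04, 0.19 and -0.30, and Gpihbp1, which carries lipoprotein lipase to the capillary lumen, by -0.04. Lypd5 differed by -0.14, Lypd6 by 0.17, Lypd11 by -0.37 and Spaca4 by 0.02. Lypd8 was well above background in wild-type only and at least 1.18-fold lower.

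Enzymes that make and attach the GPI anchor are given because Ly6 proteins need them to reach the surface. Over all 23400 gene names 3.15% were higher and 3.06% lower by 2-fold or more, with a median of 0.08. All 29 listed genes were measured on both arrays, with 0 higher and 1 lower by 2-fold or more and a median of 0.14, near those shares. The 1 lower gene was Pigh, a subunit of the enzyme of the initial step of anchor synthesis, at 2.02-fold and 1.80-fold with normexp. Among other GPI-anchored surface proteins of lymphocytes 19 of 23 were measured, 2 of them higher and 1 lower by 2-fold or more, with a median of 0.13. Cd24a was higher by 2.24-fold and Cntfr by 3.43-fold (2.12-fold with normexp), and Cd160, a receptor of cytotoxic lymphocytes, was lower by 5.04-fold (2.29-fold with normexp). Efna1, measured in Nr4a-TKO only, was at least 4.09-fold higher (1.85-fold with normexp).

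Interferon-stimulated genes went both ways. Of 45 genes 42 were measured, and 7 were higher, 3 lower and 32 between, with a median of -0.02, where 3.15% of all gene names were higher and 3.06% lower. With normexp 4 were higher and 3 lower, and Oas2, Mx2 and Oasl1 were no longer past 2-fold, at 1.75-fold, 1.83-fold and 1.90-fold. Oas3 was higher by 2.82-fold, Isg15 by 2.75-fold, Oasl1 by 2.49-fold and Ifih1 by 2.45-fold, while Ifit3 was lower by 6.33-fold, Gbp5 by 3.11-fold and Ifit1 by 2.29-fold. With normexp Ifit3 was 4.05-fold and Ifit1 1.68-fold lower, and Irf8, at 1.99-fold lower, was 2.05-fold lower. Mx1, an antiviral GTPase, was well above background in the Nr4a-TKO array only, at 211.8 against a dim wild-type signal of 25.6. That is a plain ratio of 9.15-fold higher, or 3.17-fold with normexp, and not a lower bound.

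Among genes of naive and central T cells all 18 were measured, and 0 were higher and 7 lower by 2-fold or more, with a median of -0.74. With normexp the counts were again 0 and 7. Over all 23400 gene names 3.15% were higher and 3.06% lower, with a median of 0.08. The 7 lower genes of the list included Klf2 at 14.5-fold, S1pr1 at 4.68-fold, Klf3 at 4.12-fold and St8sia1 at 4.04-fold.

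Several Ly6 antigens also mark other blood cells, so markers of those cells are set beside the Ly6 values. The counts in these short lists stand against 3.15% higher and 3.06% lower by 2-fold or more over all 23400 gene names. In the granulocyte list, which holds Ly6g, 7 of 12 genes were measured on both arrays, with a median of -0.07. Ly6g was the only gene of this list higher by 2-fold or more. Mpo was 7.76-fold lower (3.04-fold with normexp), and S100a8 and S100a9, measured in wild-type only, were at least 2.61-fold and at least 3.02-fold lower (1.80-fold and 1.89-fold with normexp). Monocyte and macrophage markers, relevant to Ly6c, had 9 of 12 measured, 0 higher and 2 lower by 2-fold or more (Lyz1 at 4.20-fold and Cx3cr1 at 3.14-fold, 1.89-fold and 1.82-fold with normexp) and a median of -0.06. B cell markers, relevant to Ly6d, had 6 of 10 measured, 1 higher (Cd79b at 2.51-fold), 0 lower and a median of 0.08, and 3 were well above background on neither array. The markers of endothelium, stroma and epithelium, relevant to Ly6a, Ly6c1 and Ly6d, had 7 of 12 measured, 1 higher (Krt18 at 2.43-fold, 1.91-fold with normexp), 0 lower and a median of -0.08. Col1a1, a stromal collagen, was well above background in Nr4a-TKO only and at least 2.46-fold higher (1.51-fold with normexp).

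The other marker lists had medians of 0.23 for plasmacytoid dendritic cells (7 of 8 measured), -0.07 for plasma cells (5 of 7) and -0.28 for CD8 T and NK cells (6 of 10), and 1 of 8 erythroid and platelet genes on the array was measured. Of the first 3 lists, each had 1 gene measured on both arrays that was higher by 2-fold or more and 0 lower. These were Cox6a2 (plasmacytoid) at 7.15-fold, Sdc1 (plasma cell) at 3.17-fold and Eomes (CD8 T and NK) at 2.47-fold. With normexp they were 3.08-fold, 2.01-fold and 1.99-fold higher. Klrd1 and Klrc1 of the CD8 T and NK list, measured in wild-type only, were at least 6.25-fold and at least 3.02-fold lower (3.33-fold and 2.55-fold with normexp). Hbb-b1 of the erythroid list, also measured in wild-type only, was at least 3.01-fold lower (1.82-fold with normexp). What part such cells had in the Ly6 values was not tested.

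Promoter sequence was at hand for 3 of the 9 members, Ly6c1, Ly6c2 and Ly6f, from RefSeq on GRCm38.p6. They are shown because Ly6c1 and Ly6f were each higher at a probe in the Nr4a-TKO array while Ly6c2 had no probe, and they show how close the copies are upstream of their start sites. Their coordinates are on another build than those of the probes. Over the 250 bases before the most upstream start site, Ly6c1 was identical to Ly6c2 in 57.7% of alignment columns. Ly6c1 was identical to Ly6f in 64.6%, and Ly6c2 to Ly6f in 65.9%. The alignments ran to 284, 280 and 276 columns, and columns with a gap count as not identical. The likeness of the aligned bases alone is therefore higher. The capitals mark the longest run that all 3 hold. It begins at -35, -60 and -63 from the start site in Ly6c1, Ly6c2 and Ly6f, so the windows are offset. On either strand, this run of 15 bases was present in 7 of 32851 promoter windows of 300 bases (0.0213%), which belong to 5 genes. These were Ly6c1, Ly6c2 and Ly6f, which hold it by construction since they set the run, and Ly6a2 and Clcn5.
Ly6c1, chr15:75048838-75048907, minus strand: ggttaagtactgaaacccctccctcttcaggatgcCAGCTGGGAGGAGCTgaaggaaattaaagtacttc
Ly6c2, chr15:75111982-75112066, minus strand: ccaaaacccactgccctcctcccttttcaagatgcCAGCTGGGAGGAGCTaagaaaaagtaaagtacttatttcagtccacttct
Ly6f, chr15:75268323-75268407, plus strand: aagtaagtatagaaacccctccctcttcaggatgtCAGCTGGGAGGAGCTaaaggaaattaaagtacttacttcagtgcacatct

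The windows of these 3 genes were searched on both strands for AAAGGTCA, the site that Nr4a receptors bind as monomers, its 6-letter core AGGTCA, the interferon-stimulated response element, and TTCNNNGAA, a STAT site. AGGTCA, which is contained in AAAGGTCA, was found at 1 place, 125 bases before the most upstream Ly6c1 start site, and was present in 16.3% of all windows. The others were not found in these windows, and 1.51%, 3.44% and 8.30% of all windows held AAAGGTCA, the interferon-stimulated response element and TTCNNNGAA. No match says only that these letters are not in these windows.

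Under each of 10 settings of background correction and scaling the count was the same, with 3 of the 8 Ly6 probes higher by 2-fold or more and 0 lower. The share of all probes that were higher or lower by that much varied with the setting. It was 1.77% higher and 1.78% lower with normexp, 2.89% and 3.15% on the array median, and 2.68% and 3.37% on the 75th percentile of bright probes. Quantile normalization gave 2.83% higher and 3.2% lower, loess 2.77% and 3.26%, and centring on spike-in controls 1.74% and 5.54%. The deposited table gave 2.97% higher and 3.08% lower, keeping outlier spots 2.97% and 3.07%, and centring on housekeeping genes 2.26% and 4.04%.

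**Figure D4:**
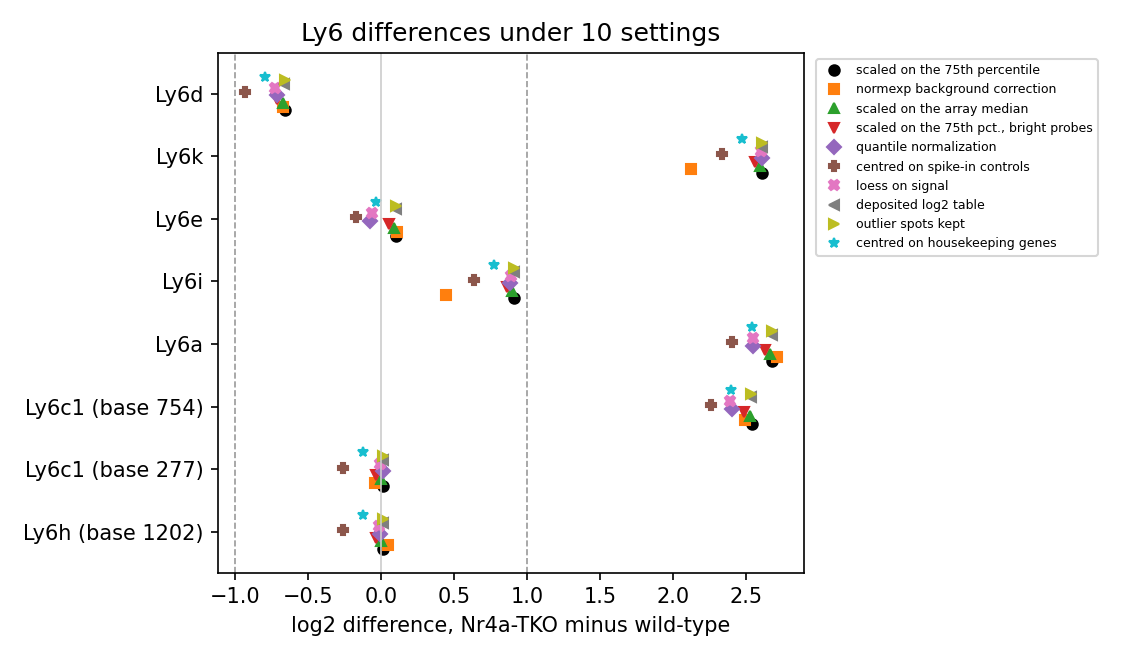
Log2 difference, Nr4a-TKO minus wild-type, of the 8 Ly6 probes measured on both arrays under 10 settings of background correction and scaling, with 1 symbol for each setting and dashed lines at 2-fold. Ly6k, Ly6a and the Ly6c1 probe at base 754 lie above 2-fold in all 10 settings, and Ly6d, Ly6e, Ly6i, Ly6h and the other Ly6c1 probe lie within 2-fold in all 10.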

How the data were processed

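Each array's deposited file holds an intensity for every spot. Per the file headers it came from Agilent Feature Extraction 10.10.1.1 with spatial and multiplicative detrending, with mm9 as the genome build, and dim spots carry a substitute value. The authors also deposited a log2 table. Compared probe by probe with the log2 processed signals, it differed on each array by a constant (SD of the remainder 0.00029), with medians of -3.53 for Nr4a-TKO and -3.54 for wild-type. The rule behind the constant is unknown.

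Control spots (3671 of 62976) and outlier spots were left out. The processed signal was put on a log2 scale, spots of 1 probe were averaged, and the 75th percentile of the 55676 probes was subtracted on each array. Of these, 35572 were well above background in Nr4a-TKO and 36740 in wild-type (the scanner's call, made in no fewer of a probe's spots than not). The number of saturated probes was 0. A probe well above background on 1 array was given as a bound against the higher of the lowest such signal on the dim array and its own signal there. Where its own signal was the higher, as for Mx1, the value is a plain ratio. Each bound holds for scaling on the 75th percentile, and normexp gave smaller values for those named. Names came through RefSeq accessions for 27508 probes. A gene in a list was represented by its brightest probe. All Ly6 probes were named. List genes past 2-fold were named up to 4 in each direction, together with measured superfamily relatives, and other list genes named were chosen after their values were seen. The members and lists were chosen with earlier results of these data known.

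The median SD between spots of a probe was 0.055 in Nr4a-TKO and 0.061 in wild-type over 283 probes. The counting step was tested on simulated data. Python 3.11.15, numpy 2.4.6, pandas 2.3.3, Biopython 1.88, matplotlib 3.10.9, R 4.3.3 and limma 3.58.1 were used. The number of arrays limits the precision.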

Additional observations from a re-analysis of the deposited data

How the results depend on the processing

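Alternatives were normexp background correction (offset 50), scaling on the array median or on bright probes, quantile normalization, centring on spike-ins, loess (span 0.3), the deposited table, keeping outlier spots, other filters and thresholds and, added after seeing the data, centring on housekeeping genes. The count of 3 Ly6 probes at least 2-fold higher was 5 without the filter on dim probes, which adds probes without a measured level, and was 3 or 4 in the others. The count of 0 at least 2-fold lower was 1 at the 1.5-fold threshold, which Ly6d, 1.58-fold lower, passed. The median of 0.51 was 0.28 with normexp, 0.23 with spike-ins, 0.37 with housekeeping genes, 0.96 without the filter, 1.32 with the stricter filter (6 probes) and 0.91 with either the brightest probe or the mean of probes for each gene, the last ones over fewer or other values by construction. It stayed above 0 in every setting run. Spike-in centring shifted all probes by -0.27 and housekeeping genes by -0.14. The signs of Ly6e, the second Ly6c1 probe and the Ly6h probe turned in 4, 5 and 6 settings. No leave-one-out and no block by slide could be fitted with 1 array per genotype. No paired analysis was possible because each genotype had 1 array. Dim probes (Ly6i, Ly6f, Ly6h) are limited by signal over background.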
